A study of Caenorhabditis elegans with 5 samples.

Results

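The pqn and abu genes of the nematode Caenorhabditis elegans were followed on 5 Affymetrix arrays of whole young adults. Members were all genes whose symbol in the platform annotation starts with pqn- or abu-. A probe set, the group of probes that reads out a transcript, was used if it named 1 gene, and a gene with several took the one with the highest mean over the 5 arrays. This gave 58 members (47 pqn and 11 abu genes) of 17118 genes measured in all. The RefSeq gene table holds 71 genes with such symbols. Of the other 13 in that table, 11 were named only by probe sets that list several genes, and pqn-37 and pqn-92 were not analysed here.

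The symbol pqn marks a prion-like protein with a domain rich in glutamine and asparagine, and abu stands for activated in blocked unfolded protein response. The abu genes were first described as induced when protein folding in the endoplasmic reticulum (ER) is disturbed and the canonical response to it is blocked. Many abu genes and a subset of pqn genes encode secreted, cysteine-rich paralogs that are expressed by cells lining the pharynx, the feeding organ, and contribute to its cuticle, which is shed and rebuilt at each moult. Other pqn proteins share only the Q/N-rich composition and act elsewhere in the cell. The name pqn is therefore not a statement of shared function.

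All 5 cultures were wild-type hermaphrodites, aged 3 days and synchronised by isolating eggs from adults. The control was not exposed. The other cultures had 24 h in benzene, in toluene, in formaldehyde or in all 3 compounds together (BTF mix). Exposed worms were kept at 20 °C in a potassium and sodium chloride medium with no food. Neither the doses nor how the control was incubated is given in the sources used here. RNA of the whole animals (300 ng) was amplified from the 3' end of transcripts and labelled with biotin.

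Each group has 1 array, so no difference has a replicate check and no test or error can be given. The number of arrays limits the precision. Every difference below is on the log2(intensity + 16) scale, which understates differences of dim genes, and a difference of 2-fold (1 on that scale) is a fixed rule of size. All 4 exposures are set against the same control array, so a deviation of that array enters every difference from control. Median intensities were close, from 82.3 for the mix to 84.8 for control. Scaling on 7 probe sets for poly-A spike RNAs instead moved the median difference of all genes to 0.42 with benzene, 0.12 with toluene, 0.12 with formaldehyde and -0.55 with the mix, so a direction below is read against the bulk of genes on the same array. The sources used here do not say that the spikes were added in equal amounts, so values with poly-A scaling show dependence on the scaling and are not a better estimate.

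A level filter, a mean log2 level at or above the 40th percentile of all genes (6.05), was passed by 49 members (41 pqn and 8 abu genes) and by 10271 genes in all. Most of the 49 stayed near control. In all 4 exposures 29 of them lay within 0.5 of control and 42 within 2-fold, while 7 (14.3%) were 2-fold away in at least 1 exposure, against 7.51% of all genes. Of those 7, pqn-13, pqn-73, pqn-75 and abu-14 were lower, and abu-15, pqn-22 and pqn-54 were higher.

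After formaldehyde, 3 of 49 members were 2-fold higher and 3 lower, against 4.55% and 2.27% of all genes. The BTF mix had 2 higher and 4 lower, against 4.34% and 2.31%. With benzene it was 1 higher and 2 lower, against 1.2% and 0.175%, and with toluene 0 higher and 2 lower, against 0.107% and 0.0974%. These are shares of single arrays with counts of at most 4 genes, and whether they set the family apart from the rest was not tested. The members lower with benzene and toluene were pqn-13 and abu-14, and a second probe set of each was within 2-fold in both exposures. The median difference over the 49 was -0.02 with benzene, -0.04 with toluene, -0.06 with formaldehyde and -0.08 with the mix, beside -0.01, -0.01, -0.05 and -0.04 over all genes. The centre of the family thus lay with that of all genes, and what the members showed was spread in both directions. With the threshold at 1.5-fold, formaldehyde had 8 higher (8.67% of all genes) and 6 lower (6.43%), and the mix 4 higher (8.46%) and 6 lower (6.63%). Benzene had 2 higher (3.48%) and 4 lower (0.915%), and toluene 1 higher (1.57%) and 3 lower (0.789%).

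**Figure D1:**
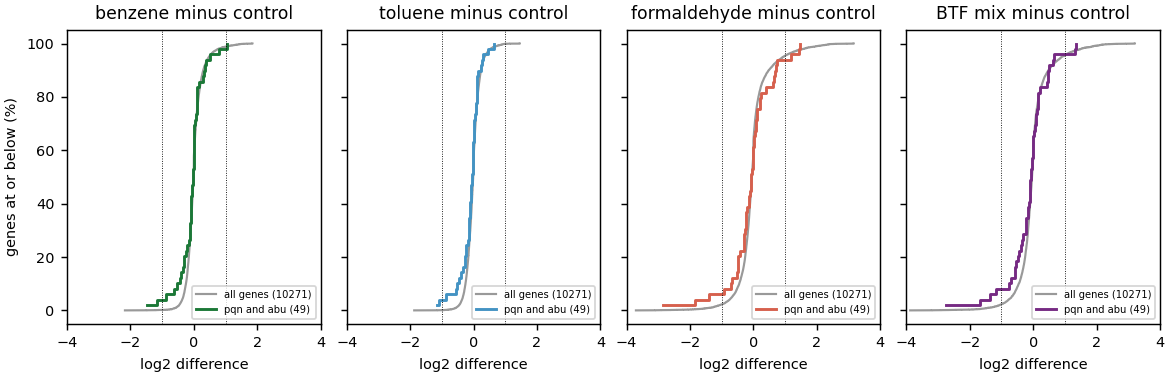
Cumulative share of genes (y axis, %) at or below a log2 difference from control (x axis) for the 49 pqn and abu genes past the level filter (coloured) and all 10271 genes (grey), 1 panel per exposed array, with dotted lines at 2-fold. Member medians lie between -0.08 and -0.02, and to the left of 0 the coloured curve lies mostly above the grey one. With toluene 63.3% of members and 53.2% of all genes lie below 0.

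The largest difference belonged to pqn-13, which encodes a protein of the Q/N-rich class. Its intensity was 431 in control, 143 with benzene, 194 with toluene, 46.2 with formaldehyde and 49.9 with the mix. Control was the highest array by 1.09 over the nearest exposed one, and the arrays with formaldehyde were the lowest. The differences from control were -1.49, -1.09, -2.84 and -2.76 in that order. In RNA of whole animals, fewer cells of a type and less RNA per cell cannot be told apart, here and for every gene below. A second probe set of pqn-13 had 155 in control, 86.8 with both benzene and toluene, 75.9 with formaldehyde and 65.0 with the mix. It kept the order of control above all exposed arrays, but it was 2-fold lower in the mix only (-1.08). The toluene difference of pqn-13 was within 2-fold with a pseudocount of 64 (-0.94), with poly-A scaling (-0.95) and with its probe sets averaged (-0.91).

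pqn-73 had 256 in control, 133 with benzene and the same value with toluene, 60.8 with formaldehyde and 68.7 with the mix. As with pqn-13, control stood above all exposed arrays and the 2 arrays with formaldehyde were the lowest, at -1.83 and -1.69. After benzene and toluene it stayed just short of 2-fold, at -0.87 in both. Its single probe set is marked s, meaning that its probes can match several transcripts.

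pqn-75 had 880.4 in control, 655 with benzene, 613 with toluene, 326 with formaldehyde and 336 with the mix. The arrays fell into 3 steps: control, then benzene and toluene (-0.42 and -0.51), then formaldehyde and mix (-1.39 and -1.35). With poly-A scaling the benzene difference turned to 0.04.

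abu-14, a gene of the pharyngeal cuticle, had a different shape. It had 1286 in control and 566, 574, 674 and 559 in the benzene, toluene, formaldehyde and mix arrays. All 4 exposed arrays lay within 0.26 of each other, and control lay 0.92 above the highest of them. The differences from control were -1.16, -1.14, -0.92 and -1.18, so formaldehyde fell just short of 2-fold. On this probe set the control array stands apart from all exposed ones, with formaldehyde the nearest to it. On a second probe set, with 234 in control, the differences were only -0.37, -0.55, -0.14 and -0.53. There formaldehyde, at 210, lay close to control, so the narrow range of exposed values rests on 1 probe set. The mean of both probe sets was 2-fold away in no exposure (-0.76 with benzene, -0.85 with toluene and -0.85 with the mix). With poly-A scaling it stood at -0.70 with benzene and -0.997 with toluene.

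**Figure D2:**
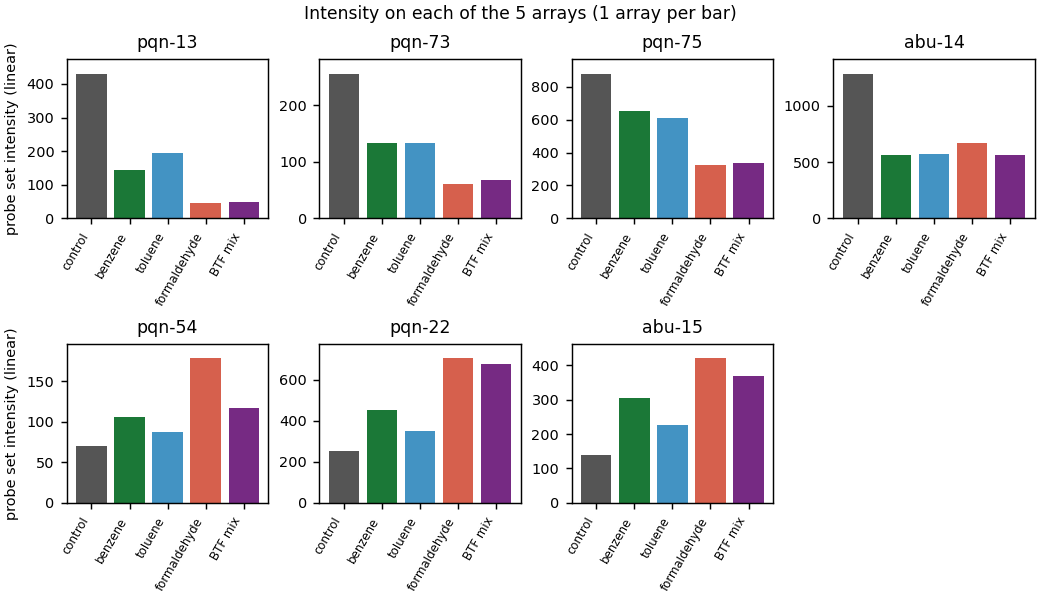
Probe set intensity (linear scale, y axis from 0) of the 7 members 2-fold away from control in any exposure, with 1 bar per array. In pqn-13, pqn-73, pqn-75 and abu-14 control is the highest bar, and in pqn-54, pqn-22 and abu-15 it is the lowest with formaldehyde the highest.

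A further 18 of the 49 members lay below control in all 4 exposures without reaching 2-fold in any, as did 3427 of 10271 genes in all. pqn-71 had 103 in control and 61.4, 66.0, 59.1 and 64.7 in the exposed arrays in the same order. As on the probe set used for abu-14, this sets control apart from a narrow range of exposed values (0.13). abu-13, one of the abu genes reported to be repressed through the neuronal receptor OCTR-1, had 104.04 in control and 67.4, 75.0, 69.5 and 54.3, with the mix lowest (-0.77). pqn-26 had 104.2 in control and between 66.4 and 73.1 in the exposed arrays. Both arrays with formaldehyde lay below the other 3 arrays in 14 of 49 members, against 30.4% of all genes. Of the 14, 11 stayed within 2-fold of control in every exposure, as did 2861 of the 3121 such genes in all. Among the 11, pqn-15 went from 565 in control to 344 with formaldehyde and 398 with the mix, pqn-25 from 364 to 253 and 240.2, and pqn-53 from 6412 to 4507 and 4650.3. pqn-41, whose glutamine-rich protein takes part in the death of the linker cell of the male gonad, had 535 in control, 514 with benzene, 436 with toluene, 382 with formaldehyde and 322 with the mix (-0.71). Its other 3 probe sets lay below the level filter.

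Among the members above control, abu-15 had 140 in control, 305 with benzene, 226 with toluene, 420.2 with formaldehyde and 369 with the mix. Control was the lowest array, 0.64 below toluene, the nearest one. The differences were 1.04, 0.64, 1.49 and 1.31, so benzene just passed 2-fold. The probe set is marked x, meaning that some of its probes can also match unrelated or paralogous transcripts. In the RefSeq table abu-15, abu-6 and abu-7 are direct neighbours on the chromosome.

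pqn-22 had 253 in control, 453 with benzene, 352 with toluene, 705 with formaldehyde and 677 with the mix. The order of arrays was the one seen for abu-15, and the differences were 0.80, 0.45, 1.42 and 1.37. Its 1 probe set is marked s. pqn-54 had 70.1 in control, 105 with benzene, 87.5 with toluene, 178 with formaldehyde and 117 with the mix. Formaldehyde stood apart (1.18), and the mix, which also contained formaldehyde, was at 0.63. With a pseudocount of 64 in place of 16, pqn-54 fell within 2-fold with formaldehyde (0.85), as did abu-15 with benzene (0.86). Without probe sets marked s or x, pqn-54 was the 1 member of 30 that was 2-fold higher with formaldehyde, and 0 were higher with benzene or the mix. With poly-A scaling no member was 2-fold higher with the mix: abu-15 stood at 0.78, pqn-22 at 0.83 and pqn-54 at 0.16.

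Several abu genes followed abu-15 at a smaller size. abu-6, a pharyngeal cuticle gene, had 217 in control, 288 with benzene, 242 with toluene, 370 with formaldehyde and 299 with the mix. abu-8 had 223, 292, 242, 382 and 324 on the same arrays, and abu-11, whose overexpression was reported to lengthen life, had 221, 279, 238, 354 and 311. On every array the highest of these 3 values was at most 1.08 times the lowest. The probe sets of all 3 carry an s or x mark, so they may not be separate measurements. abu-10 rests on an unmarked probe set and had 98.8, 124, 119.4, 160 and 144, with differences of 0.29, 0.24, 0.61 and 0.48. Its second probe set, near 20 on every array, lay below the filter and its differences from control ran from -0.02 to -0.01.

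**Figure D3:**
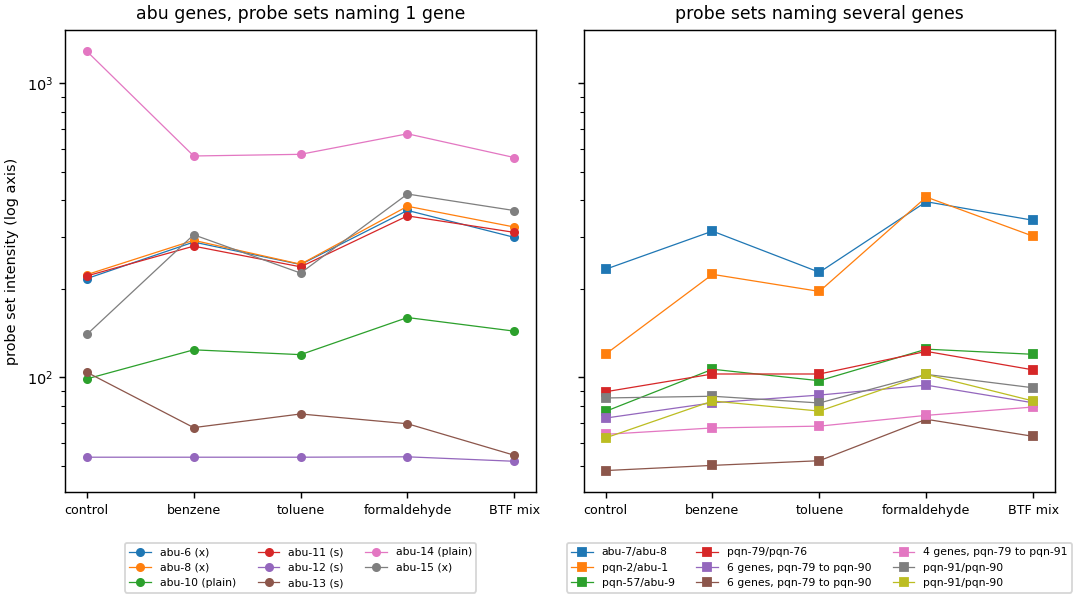
Probe set intensity (log axis) on the 5 arrays for the 8 abu genes past the level filter (left, probe set kind in brackets: plain, s or x) and for the 9 probe sets that name several pqn or abu genes (right). Lines join the values of 1 probe set and have no time order. abu-6, abu-8 and abu-11 nearly coincide, abu-14 is highest in control at 1286, and abu-12 is nearly level.

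By symbol, the 8 abu genes past the filter had a median difference of 0.30 with benzene, 0.10 with toluene, 0.63 with formaldehyde and 0.45 with the mix. The 41 pqn genes had -0.05, -0.07, -0.09 and -0.09. Of the 8 abu genes, only abu-10 and abu-14 rest on probe sets without an s or x mark, at 0.61 and -0.92 with formaldehyde. As abu-6, abu-8 and abu-11 may not be separate measurements, counts of abu genes here and below may hold fewer than 8 separate values. Formaldehyde was above control in 6 of 8 abu genes and in 14 of 41 pqn genes (36.6% of all genes), with abu-13 and abu-14 the abu genes below. Among the 6, abu-12 was level with control (0.003). With poly-A scaling, abu-6, abu-8, abu-10 and abu-11 were at or just below control with the mix, between -0.08 and -0.01, and remained above control in the other 3 exposures. Over both symbols, the formaldehyde array was the highest of the 5 in 15 of 49 members, against 15.6% of all genes, and the control array was the highest in 22 of 49, against 35.3%. Control was the lowest array in 10 of 49, against 22.3%, and this included abu-6, abu-8, abu-10, abu-11 and abu-15, 5 of the 8 abu genes.

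Some comparisons need no control array. Toluene is benzene with a methyl group, and since neither concentration is known, the doses may not match. Between benzene and toluene, 0 of 49 members were 2-fold apart, where 0.185% of all genes were higher with benzene and 0.0195% lower. Member differences (benzene minus toluene) ran from -0.40 for pqn-13 to 0.41 for abu-15, with a median of 0.02. With 1 array each, this does not show that the compounds act alike. Between the mix and formaldehyde, again 0 members were 2-fold apart in either direction, where 0.0389% of all genes were higher in the mix and 0% lower. The mix minus formaldehyde differences ran from -0.54 for pqn-54 to 0.24 for pqn-24. The next lowest was pqn-74, with 401 with formaldehyde and 277 with the mix, beside 247 in control. All 8 abu genes were lower in the mix than with formaldehyde (43.6% of all genes were), by -0.04 for abu-12 to -0.29 for abu-6.

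Formaldehyde set directly against benzene had 1 member 2-fold lower, pqn-13 (-1.35), and 0 higher, beside 1.24% and 1.11% of all genes. The largest positive difference was 0.68 for pqn-54. All 8 abu genes were higher with formaldehyde than with benzene (39.8% of all genes were), from 0.0034 for abu-12 to 0.44 for abu-15. This comparison and that of the mix with formaldehyde share the formaldehyde array.

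**Figure D4:**
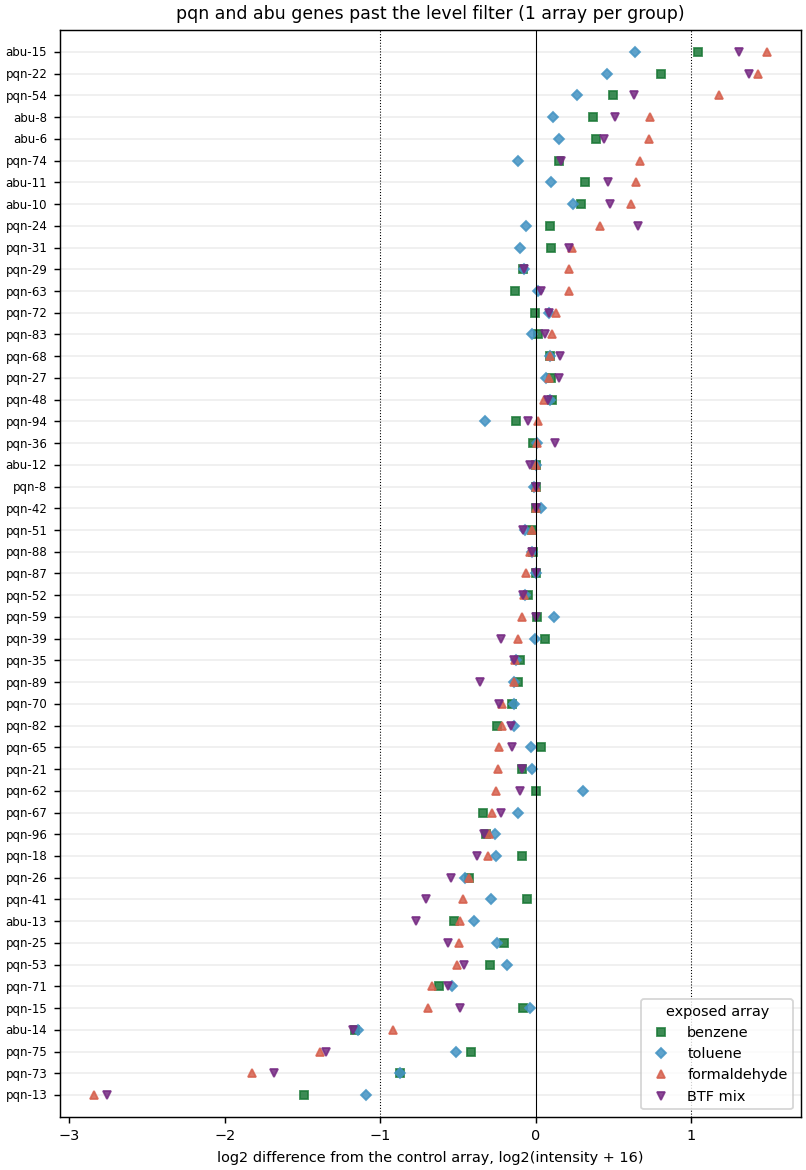
log2 difference from control (x axis) for each of the 49 members past the level filter, ordered by the formaldehyde value, with 1 symbol per exposed array and dotted lines at 2-fold. Values run from -2.84 for pqn-13 to 1.49 for abu-15, both with formaldehyde, and the middle of the list stays close to 0 in all exposures.

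The 5 members with the highest mean level were pqn-59, pqn-53, pqn-52, pqn-70 and pqn-87, although intensities of different probe sets are not a scale of abundance. pqn-59, the worm counterpart of the human RNA-binding protein UBAP2L, had 6198 in control, 6237 with benzene, 6713 with toluene, 5821 with formaldehyde and 6198 with the mix. pqn-52 lay between 4104 and 4355 on the 5 arrays, pqn-70 between 3077 and 3630.2, and pqn-87 between 1614 and 1689. Apart from pqn-53, given above, the probe sets used for these moved by no more than 0.24 in any exposure, while a second one of pqn-52 was 0.97 above control with formaldehyde. pqn-8 was among the steadiest members, with 88.97 on 4 arrays and 87.9 with toluene. The probe set used for pqn-42 had 57.3 on 4 arrays and 59.0 with toluene, but a further one past the filter went from 82.4 in control to 36.9 with formaldehyde (-0.89). Identical values on different arrays were a property of the deposited table: 15 of 49 members (30.6%) and 32.4% of all genes had at least 1 such pair. A value shared by arrays does not show that the transcript was unchanged.

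The 9 members below the level filter were abu-2, abu-3, abu-4, pqn-10, pqn-11, pqn-16, pqn-20, pqn-80 and pqn-84. None was 2-fold away from control in any exposure. The largest difference among them was that of pqn-84 with formaldehyde (0.34, intensity 39.2 in control and 53.9), where the added 16 compresses differences most.

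For 17 members past the filter, 25 further probe sets of the same gene also passed it. Of the 100 pairs of a used and a further probe set (25 in each of the 4 exposures), 12 pairs, from 4 genes, were more than 0.5 apart. These genes were abu-14, pqn-13, pqn-42 and pqn-52. A second probe set of pqn-52 had 212 in control, 367 with benzene, 236 with toluene, 432 with formaldehyde and 414 with the mix, where the probe set used was at -0.08 with formaldehyde. The further one of pqn-42 had 82.4, 59.8, 69.9, 36.9 and 40.2 on the same arrays. Only abu-14 and pqn-13 had probe sets on different sides of 2-fold, in 6 pairs.

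**Figure D5:**
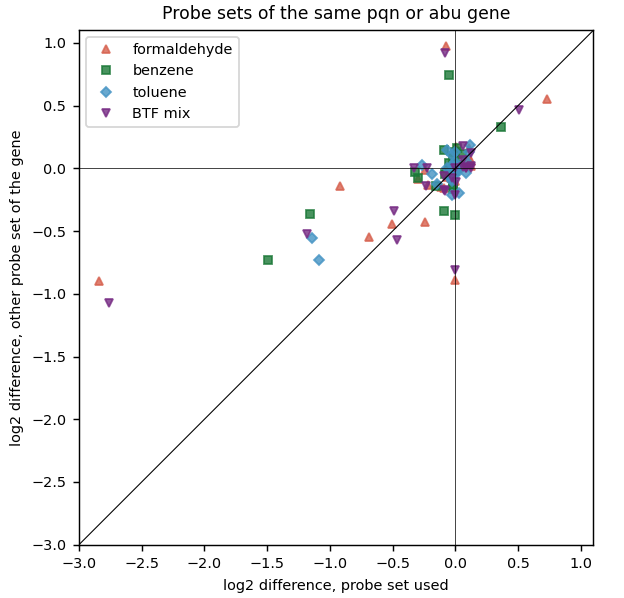
log2 difference from control on the probe set used for a gene (x axis) and on a further probe set of the same gene (y axis), for 17 pqn and abu genes, with 1 symbol per exposed array and the line of equality. Most points lie near 0, pqn-13 and abu-14 lie above the line at the left, and pqn-52 reaches 0.97 on the y axis near 0 on the x axis.

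Other genes of the pharyngeal cuticle were taken from a list of chitin genes, the proteases nas-6 and nas-7, and genes with the prefixes idpa, idpb, idpc, idpp and fipr, of which 24 of 40 measured genes passed the filter. After formaldehyde 1 of 24 was 2-fold higher (fipr-21, 1.15) and 1 lower, against 4.55% and 2.27% of all genes, and the median was 0.00. The lower one was chtb-1, predicted to encode a chitin-binding protein, with 996 in control, 390.2 with benzene, 457 with toluene, 76.3 with formaldehyde and 87.8 with the mix. Its 5 arrays stood in the same order as those of pqn-13. chtb-1 was also the 1 gene 2-fold lower with benzene (-1.32), toluene (-1.10) and the mix (-3.29), against 0.175%, 0.0974% and 2.31% of all genes. With the mix 1 gene was higher (fipr-24, 1.02), against 4.34%. Benzene and toluene had 0 higher, against 1.2% and 0.107%. chs-2, the chitin synthase of the pharynx, had 69.6 in control and 48.9, 48.9, 50.4 and 40.7 in the exposed arrays.

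Of 15 regulators of the pharynx or of moulting, 11 passed the filter, and 5 of them were 2-fold lower with formaldehyde and the same number with the mix (2.27% and 2.31% of all genes), with medians of -0.49 and -0.53. ceh-22, a homeobox gene of pharyngeal muscle, had 182 in control, 118.6 with benzene, 149 with toluene, 33.0 with formaldehyde and 37.8 with the mix. peb-1, a DNA-binding factor of the pharynx, had 385, 274, 359, 132 and 131. The others were blmp-1 (-1.67 with formaldehyde), nhr-25 (-1.03) and ceh-34 (-1.005). pha-4, the organ identity factor of the pharynx, stayed between 102 and 154. After benzene and toluene 0 of 11 were 2-fold away, with medians of -0.16 and -0.06.

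Of 17 moulting genes past the filter, 5 were 2-fold lower with formaldehyde, 5 with the mix and 0 with benzene or toluene. The shares of all genes were 2.27%, 2.31%, 0.175% and 0.0974% in that order, and the medians of the list -0.47, -0.52, -0.13 and 0.04. noah-1, a matrix protein of the epidermis, had 1609 in control, 1553 with benzene, 1983 with toluene, 338 with formaldehyde and 298 with the mix. Its benzene value was just below control and its toluene value above it. The others lower with formaldehyde were mlt-11 (-2.59), lpr-3 (-1.95), fbn-1 (-1.94) and sym-1 (-1.09). With toluene only lpr-3 of these 5 was below control (-0.15). Of 14 genes of the unfolded protein response of the ER, 0 were 2-fold away in any exposure, against 7.51% of all genes. The name abu refers to a state in which that response is blocked, not to the response itself. The median over the 14 was 0.05 with benzene, -0.02 with toluene, 0.03 with formaldehyde and 0.02 with the mix. With formaldehyde the differences ran from -0.77 for atf-6 to 0.50 for ckb-2. hsp-4, the ER chaperone BiP, had 1343 in control, 1760.0, 1392, 1905 and 1582. ced-1, the engulfment receptor linked to abu induction, stayed between 507 and 557.

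Markers of cell types were read beside these results, and their part in them was not tested. All 7 pharyngeal muscle markers passed the filter. Their summed intensity was 3361 in control, 3331 with benzene, 2865 with toluene, 3663 with formaldehyde and 3429 with the mix. With formaldehyde their median difference was 0.19, with 0 of 7 2-fold higher and 1 lower (ceh-22, -2.01). The pharyngeal myosin genes myo-1, myo-2 and myo-5 had 1577, 324 and 90.1 in control and 1796, 329 and 79.4 with formaldehyde. Summed over 9 gland markers, intensity lay between 1534 and 1923. For 9 embryo markers, of which 5 passed the filter, the sum was 1459 in control, 1318 with benzene, 1433 with toluene, 668 with formaldehyde and 652 with the mix, of which hch-1, the hatching protease, gave 881 in control and 116 with formaldehyde. The sum of 8 measured sperm markers was 1798, 4455, 3224, 8597 and 7196 on the same arrays, and that of 9 measured intestine markers ran from 12430 in control to 18401 with formaldehyde. Medians with formaldehyde were -0.22 over 8 epidermis markers, 0.30 over 7 of body wall muscle, -0.34 over 9 of neurons and -0.05 over 12 of germline and oocyte, with 0 of them 2-fold away on that array. No marker intensity was 0, but the lowest value of any probe set was 9.15, so this does not show that a marker was detected.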

How the data were processed

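The deposited table gives, on a linear scale, the intensity of 22625 probe sets on 5 arrays. Per the submitters' processing notes, RMA, Affymetrix Expression Console 1.1 and MAS5 were used, with no role stated for each. The sources used here do not say how the authors scaled the arrays.

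Gene symbols came from the platform annotation, and all 58 members were found in the RefSeq gene table (assembly WBcel235), which was used for names and for which genes are neighbours. Intensities were taken to log2(value + 16). Genes past the 40th percentile of mean log2 level entered counts. Calculations used Python 3.11.15 with pandas 2.3.3. The 2-fold call was tested on simulated arrays with planted differences, and the quantile step on a small example. Other steps were not tested in that way.

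Named with values were members past the filter that were 2-fold away from control in any exposure, the 5 with the highest mean, and those just inside or outside 2-fold. Other genes given with values were chosen after their values were seen. The members, gene lists and markers were chosen with earlier results of these data known. A grouping of members by cysteine content was planned and not made, because protein sequences were not used here.

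The same counts and medians were computed with other filters (none, 60th percentile), pseudocounts (1, 64), scalings (median, quantile, poly-A spikes), averaged probe sets, no s or x probe sets, and a 1.5-fold threshold.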

Additional observations from a re-analysis of the deposited data

Results flagged for a closer look

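The 9 probe sets that name several pqn or abu genes stayed out of the gene counts, and 1 of them was 2-fold above control. It names pqn-2 and abu-1, which are direct neighbours in the RefSeq table. abu-1 is a gene used as a reporter for the response to blocked unfolded protein signalling. The intensity was 120 in control, 224 with benzene, 196 with toluene, 410.4 with formaldehyde and 302 with the mix. Control was the lowest array and formaldehyde the highest, with differences of 0.82, 0.64, 1.65 and 1.23. The formaldehyde difference was above that of every gene counted as a member, where the highest was abu-15 at 1.49. The probe set is marked s, so the 2 genes cannot be told apart.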

How the results depend on the processing

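Of 100 recomputed member counts, 78 stayed within 1.5 times the reported count, and of 45 recomputed medians 40 moved by less than 0.1. The 78 include counts that were 0 and stayed 0, such as those of benzene minus toluene without a level filter. No 2-fold difference of a named member changed sign in 240 recomputed values, of which 12 fell below 2-fold and 1 passed it. Many of the 240 could not change, so these numbers are not a measure of stability. The filter settings leave a gene's own value as it is, and averaging does so for genes with 1 probe set. Without s and x probe sets, abu-15, pqn-22 and pqn-73 have no value, and the other named members keep theirs. No level filter, a pseudocount of 1, median centring and quantile normalization moved no count or median beyond these limits. The filter at the 60th percentile left 30 members, since pqn-13, pqn-73 and others lie below it. Of the 30, 1 was 2-fold lower with benzene, 1 with toluene, 1 with formaldehyde and 2 with the mix. The shares of all genes under that filter were 0.19%, 0.102%, 2.15% and 2.18%. A pseudocount of 64 gave 0 higher with benzene (0.74% of all genes) and 1 lower with toluene (0.0682%). Poly-A scaling gave medians of 0.40 for benzene, 0.11 for toluene, 0.11 for formaldehyde, -0.59 for the mix and 0.31 for benzene minus toluene, close to the shift of all genes. It gave 2 higher and 1 lower with benzene (3.82% and 0.0682% of all genes under the same scaling), 0 lower with toluene (0.0584%), and 0 higher and 9 lower with the mix (1.94% and 8.41%). Averaging all probe sets of a gene gave 1 lower with benzene and 0 with toluene. Without s and x probe sets, which left 30 members, 1 was higher with formaldehyde, 0 with benzene and 0 with the mix. For averaged probe sets and for no s or x probe sets, the share of all genes is not given here. At 1.5-fold, benzene had 2 higher and 4 lower, toluene 1 higher, formaldehyde 8 higher and 6 lower, and the mix 4 higher. Where construction does not show it, the cause was not tested. No paired analysis was possible because each group has 1 array. Dim members are limited most, since the added 16 compresses their differences.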

Other observations

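The other 8 shared probe sets stayed within 2-fold of control. The one for abu-7 and abu-8 had 233 in control and 396 with formaldehyde (0.72), close to abu-8 on its own probe set (0.73). The one for pqn-57 and abu-9, neighbouring genes, had 76.6 in control and 125 with formaldehyde (0.60). The other 6, which name pqn-76, pqn-78, pqn-79, pqn-90, pqn-91 or abu-5 in several combinations, lay between 0.17 and 0.60 with formaldehyde. pqn-76, abu-5, pqn-78 and pqn-79 lie within a stretch of 6 genes, and pqn-90 and pqn-91 are direct neighbours.

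Of 9 gland cell genes of the pharynx, 8 passed the filter, and with formaldehyde 1 was 2-fold higher and 1 lower, with a median difference of -0.09. phat-4 had 211 in control, 419 with benzene, 256 with toluene, 705 with formaldehyde and 607 with the mix. phat-5 had 263, 109, 128, 106 and 92.9 on the same arrays. For the first, control was the lowest array, and for the second the highest. These genes were chosen after their values were seen.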
